A study of Mus musculus with 18 samples.

Results

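The liver stores glucose as glycogen after meals and makes and releases glucose between them, and 9 genes of these pathways were described here in 18 mouse livers: Slc2a2, Pklr, Pck1, Fbp1, G6pc, Gys2, Pygl, Ppp1r3b and Ppp1r3c. They were chosen by symbol, and all 9 were found among the 19057 lines of the expression table. The 18 livers were from male ICR mice, an outbred strain, all labelled 10 weeks old, with 3 livers in each of 6 groups. The question was how a high-fat diet, an alginate oligosaccharide (AOS, short chains cut from a seaweed polysaccharide) and the transfer of gut microbes left the mRNA of these genes.

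Con mice ate a regular diet and HFD mice a high-fat diet, and both were given saline. AOS mice were labelled with AOS at 10 mg/kg alone, and HFD+AOS mice with the high-fat diet and AOS at the same dose. The Con-FMT and A10-FMT mice ate the high-fat diet and were given gut microbes by mouth, from control donors in Con-FMT and from donors dosed with AOS at 10 mg/kg in A10-FMT. The transferred material was small-intestinal content pooled over donors, so the livers of a transfer group shared the same inoculum. The schedule of AOS dosing in the AOS and HFD+AOS mice, the fed or fasted state and the hour at which livers were taken were not given in the sources used here.

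Slc2a2 encodes GLUT2, the carrier that moves glucose across the hepatocyte membrane in both directions. Inside the cell glucose is phosphorylated and is either burned by glycolysis, whose last step in liver is pyruvate kinase (Pklr), or stored as glycogen by glycogen synthase (Gys2). Between meals glycogen phosphorylase (Pygl) takes the store apart, while Pck1 and Fbp1 carry out controlled steps of gluconeogenesis and glucose-6-phosphatase (G6pc) frees the sugar for the blood. Ppp1r3b and Ppp1r3c encode subunits that hold protein phosphatase 1 on glycogen particles, where it turns synthase on and phosphorylase off. Insulin, glucagon and glucose control many of these genes, and the circadian clock of the hepatocyte drives daily rhythms in several of them.

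The promoters of 3 of these genes are shown as examples of short motifs of the hormonal and clock control just described. Of these, Ppp1r3c and G6pc passed the test in comparisons below, and Pck1 passed only in some alternative settings. No link between these letters and the results was tested. The bases are those upstream of the start site that lie outside annotated genes, from RefSeq's promoter table for GRCm38.p6, written 5′ to 3′ on the strand of the gene, and a motif match is a description of letters and not a site shown to be bound.
Ppp1r3c promoter, chr19:36736654-36736854, minus strand, with the E-box CACGTG (the letters that clock activators and other basic helix-loop-helix factors recognise) in capitals: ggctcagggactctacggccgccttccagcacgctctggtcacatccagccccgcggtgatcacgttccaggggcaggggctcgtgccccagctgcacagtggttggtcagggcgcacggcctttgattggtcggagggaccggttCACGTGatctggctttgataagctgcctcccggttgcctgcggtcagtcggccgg
G6pc promoter, chr11:101367466-101367560, plus strand, with the core TGTTTTG of an insulin response element in capitals: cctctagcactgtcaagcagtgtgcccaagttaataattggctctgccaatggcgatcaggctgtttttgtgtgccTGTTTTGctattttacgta
Pck1 promoter, chr2:173152823-173153047, plus strand, with the core of a cAMP response element, read here as TGACGT on the other strand, in capitals: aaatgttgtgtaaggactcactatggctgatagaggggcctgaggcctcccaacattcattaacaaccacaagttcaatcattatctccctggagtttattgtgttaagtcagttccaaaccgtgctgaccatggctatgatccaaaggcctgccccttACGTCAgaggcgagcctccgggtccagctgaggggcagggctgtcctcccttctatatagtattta
The E-box lay at -104 to -99 from the start of Ppp1r3c. The insulin response core lay at -174 to -168 from that of G6pc, and the cAMP response core at -91 to -86 from that of Pck1. On either strand, the E-box letters stood in 6.02% of 32851 promoter windows of the same table, in the 250 bases before the start. The insulin response core stood in 5.56% of the windows and the cAMP response core in 6.47%. Other letters were searched for too. The ROR element core AGGTCA stood in 14% of the windows, among them those of Pklr, G6pc, Pygl and Slc2a2. In G6pc it lay at -54 to -49, outside the bases shown. The forkhead letters TGTTTAC and the D-box TTATGTAA stood in no window of these genes. A window was found for 7 of the 9 genes, and those without one were Gys2 and Ppp1r3b.

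In the GENCODE M21 annotation of GRCm38, Gys2 lies on chromosome 6 (142422613 to 142473109), Ppp1r3c on chromosome 19 (36731731 to 36736653), G6pc on chromosome 11 (101367561 to 101377903) and Pck1 on chromosome 2 (173153048 to 173159273), and no other annotated gene overlaps any of these. Fbp1 lies on chromosome 13 (62864753 to 62888282), also free of overlap. Pklr on chromosome 3 (89136142 to 89146784) shares 711 bases with Hcn3 on the opposite strand. Pygl on chromosome 12 (70190811 to 70231488), Slc2a2 on chromosome 3 (28697903 to 28731359) and Ppp1r3b on chromosome 8 (35375739 to 35388139) each overlap a non-coding gene of the other strand. Whether the counting used strand was not given in the sources used here, so reads of these overlapping stretches cannot be told apart.

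Values are RPKM, reads scaled to the length of a gene and to the depth of its library, which allow a level to be compared between genes. A liver's RPKM summed to between 692303 and 806937, and 14512 to 14982 genes were above 0. The RPKM step that 1 read is worth differed little between livers, with mean ratios from 0.970 to 1.01, but the number of reads was not given, so the counting error of a value is unknown. Albumin stood at 24367 to 41363 RPKM, whereas of 4 pancreas markers Prss1 and Ins2 were at 0 in every liver, Cpa1 was at most 0.29 RPKM and Cela1 was at 30.55 to 52.88 RPKM. Of 4 muscle markers Ckm was at 0 throughout, Acta1 and Myh4 were at most 0.05 and 0.01 RPKM, and Pygm was at 0.31 to 0.78. The third Con liver lay between the other Con livers for 97.97% of 148 genes that separated those, including all 9 genes described here, and a weighted mean of the other pair fitted it to a median absolute log2 difference of 0.0665. The third AOS liver lay between the other AOS livers for 96.48% of 142 genes and 8 of the 9, with a difference of 0.083, against 0.341 to 0.590 in the other 4 groups. The spread of the Con and AOS groups thus rests in part on livers that lie between the others. The limma test used below estimates a common spread over all groups, so these livers bear on every comparison. Calls that rest on the Con and AOS groups are given with and without the third ones.

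All 9 genes were well expressed, with mean RPKM between the 85.91 and the 98.87 percentile of the 10507 genes tested. Fbp1 was the most abundant, from 425.5 to 816.9 RPKM, followed by Pck1 from 287.2 to 897.5. Pygl varied least, with the highest liver 1.56 times the lowest, and G6pc varied most, with a ratio of 6.48. In bulk tissue, fewer hepatocytes and less RNA per hepatocyte cannot be told apart.

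**Figure D1:**
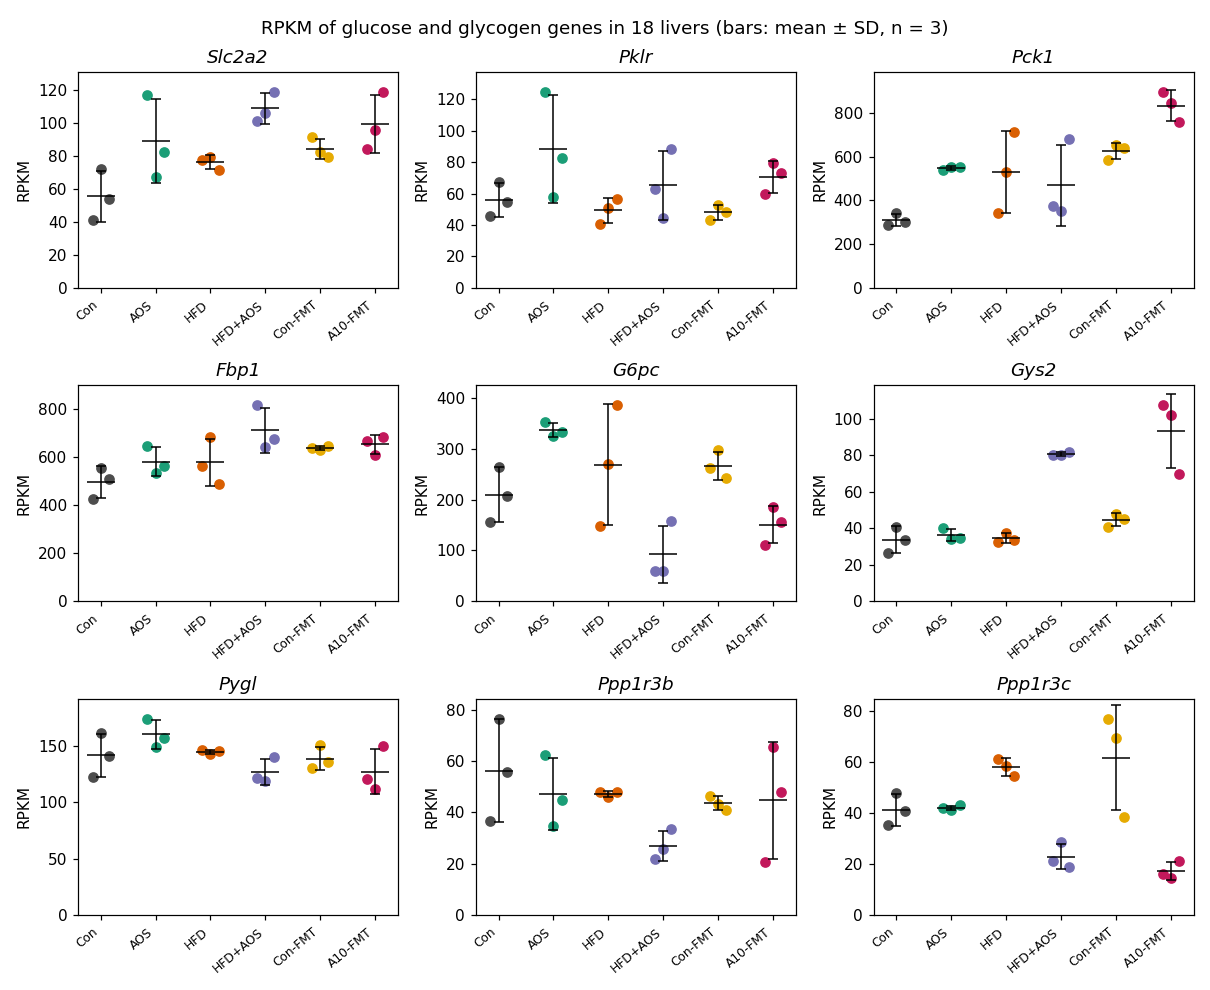
RPKM of the 9 genes in each of the 18 livers, by group on the x axis (3 points per group, horizontal line and bars for mean ± SD, each y axis starting at 0). Gys2 stands higher in the HFD+AOS and A10-FMT livers (69.86 to 107.6 RPKM) than in the other 12 (26.27 to 47.76), and Ppp1r3c stands lower in them (14.56 to 28.52 against 35.42 to 77.24).

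Genes were compared on the log2(RPKM + 1) scale with limma over all 18 livers and called at a Benjamini-Hochberg adjusted p under 0.05, and every fold below is a difference on that scale. Of the 9 genes, 2 changed between A10-FMT and HFD, where 6.6% of all genes tested did, with Gys2 higher and Ppp1r3c lower. Between HFD+AOS and HFD 3 changed, where 8.75% of all genes did, with Gys2 higher and Ppp1r3c and G6pc lower. These comparisons use the same HFD livers, so their values are given side by side and their likeness is no independent evidence. The median of the 9 folds was 0.19 for A10-FMT against HFD and -0.18 for HFD+AOS against HFD, beside medians over all genes of -0.03 and -0.01. In the first comparison 5 of the 9 were higher and 4 lower, and in the second 4 were higher and 5 lower.

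Between A10-FMT and Con-FMT 2 of the 9 changed, again Gys2 and Ppp1r3c, where 1.68% of all genes did. Between HFD+AOS and AOS 3 changed, where 5.44% of all genes did, and 5 did not overlap, where 28.7% of all genes did not. No gene of the 9 passed the limma test in HFD against Con (3 under 0.05 before adjustment, with 0.381% of all genes called), in Con-FMT against HFD (1 under 0.05 before adjustment, with 0.00952% called) or in AOS against Con (3 under 0.05 before adjustment, with 0.133% called). A miss of the threshold with 3 livers a group does not show that the levels were alike, and the intervals in the plot of fold changes give the range of values each estimate allows. For 3 livers against 3, an exact permutation test cannot go below 0.1.

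**Figure D2:**
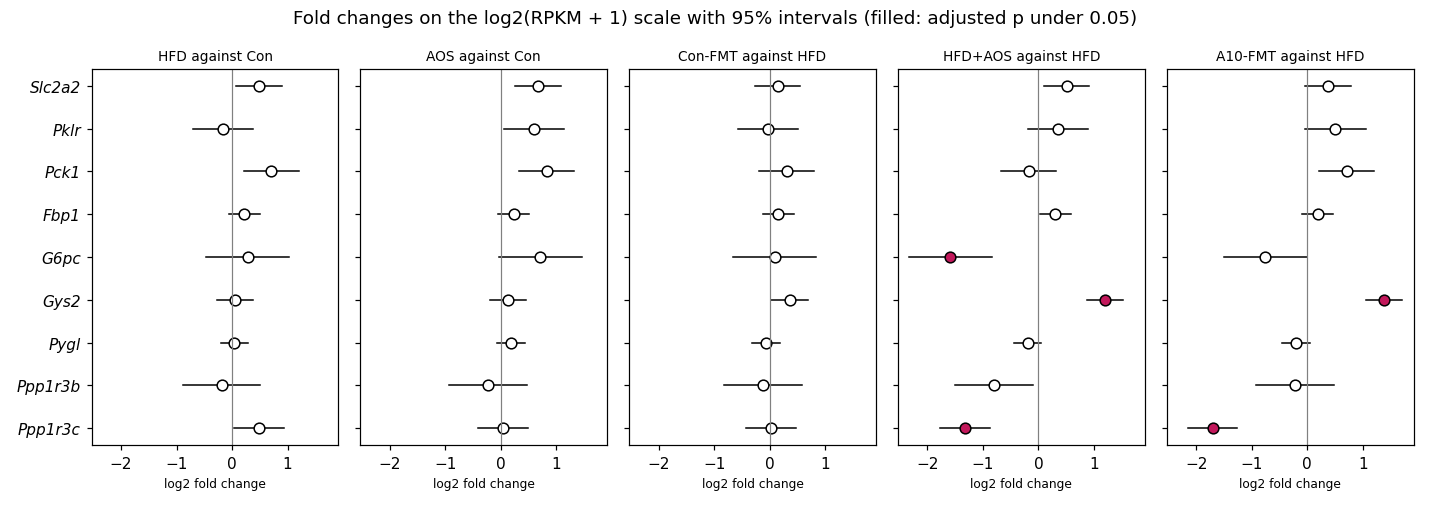
Fold changes of the 9 genes on the log2(RPKM + 1) scale in 5 comparisons (x axis), with 95% confidence intervals from limma as lines and filled points where the adjusted p over 10507 genes was under 0.05. The filled points are Gys2 and Ppp1r3c against HFD in both HFD+AOS (1.20 and -1.33) and A10-FMT (1.39 and -1.71), and G6pc in HFD+AOS (-1.58).

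Gys2, the liver's glycogen synthase, was higher in the A10-FMT and HFD+AOS livers than in the HFD livers. The HFD livers had 32.50, 37.71 and 33.41 RPKM, and the A10-FMT livers had 107.60, 102.38 and 69.86. The HFD+AOS livers lay close together at 80.20, 79.94 and 81.79 RPKM. Every liver of the latter groups was above every HFD liver. The Con livers, at 26.27, 41.01 and 33.71, and the AOS livers, at 40.20, 34.41 and 34.92, overlapped the HFD livers, while the Con-FMT livers, at 40.82, 47.76 and 45.35, lay just above them.

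Gys2 was higher by 1.39 (SE 0.15) in A10-FMT than in HFD, with a limma adjusted p of 8.07e-05. It was higher by 1.20 (SE 0.15) in HFD+AOS than in HFD, with an adjusted p of 0.000269 in limma. Both differences passed the threshold in all 12 alternative settings tried for each comparison. Against Con-FMT, the group that received control microbes, Gys2 was higher by 1.02 (SE 0.15) in A10-FMT, with an adjusted p of 0.00247 in limma, and it passed in 11 of 12 settings. In that comparison the adjusted p ran from 0.000122 to 0.105 over the settings, the highest when only those 2 groups entered the fit. Con-FMT itself differed from HFD by 0.36, without overlap, at a limma adjusted p of 0.728, in a comparison where 10.1% of all genes did not overlap.

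On the regular diet, AOS left Gys2 at 0.13 (95% interval -0.20 to 0.46) above Con. HFD+AOS exceeded AOS by 1.13 (SE 0.15, limma adjusted p 0.000635), and this passed in 12 of 12 settings, among them the fit without the third Con and AOS livers, at an adjusted p of 0.0119. The difference between the AOS effects on the high-fat and the regular diet was 1.07 (SE 0.22, limma adjusted p 0.0367), in a test that called 0.504% of all genes and 1 of the 9. That difference passed in 7 of 18 settings, with adjusted p from 0.0121 to 0.269, the highest without the third Con and AOS livers, where the value was 1.03.

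Ppp1r3c, which brings protein phosphatase 1 to glycogen, moved the other way. The HFD livers had 61.39, 58.52 and 54.56 RPKM, and the A10-FMT livers had 16.11, 14.56 and 21.36. The HFD+AOS livers had 21.19, 28.52 and 19.00 RPKM. Each of the A10-FMT and HFD+AOS livers was below all the HFD livers. The Con livers had 35.42, 47.88 and 40.80 RPKM, the AOS livers 42.07, 41.44 and 43.04, and the Con-FMT livers 77.24, 69.71 and 38.38, the last of these well under its group.

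Ppp1r3c fell by 1.71 (SE 0.21) from HFD to A10-FMT at a limma adjusted p of 0.000223, and by 1.33 (SE 0.21) from HFD to HFD+AOS at an adjusted p of 0.00164, both in 12 of 12 settings. From Con-FMT to A10-FMT it fell by 1.73 (SE 0.21, limma adjusted p 0.000515). This passed in 11 of 12 settings and missed, at an adjusted p of 0.105, where only those 2 groups entered the fit (range 2.07e-05 to 0.105). From AOS to HFD+AOS it fell by 0.87 (SE 0.21, limma adjusted p 0.0242), a difference that passed in 5 of 12 settings, with adjusted p from 0.0107 to 0.121 and the highest without the third Con and AOS livers. It missed without AOS replicate 1, 2 or 3 (adjusted p 0.0569, 0.0717 and 0.0876) and without HFD+AOS replicate 1 or 3 (0.0913 and 0.0842). HFD livers were all above the Con livers, by 0.49 (95% interval 0.04 to 0.94), but the limma adjusted p was 0.281, in a comparison where 18.5% of all genes did not overlap and 1 of the 9 did not.

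Ppp1r3b, the main glycogen-targeting subunit of phosphatase 1 in liver, had its lowest mean in HFD+AOS, with livers at 21.90, 25.70 and 33.38 RPKM. The HFD livers had 47.74, 45.84 and 47.88 RPKM, all higher than these. The difference of -0.80 (95% interval -1.50 to -0.10) had a limma adjusted p of 0.137, and passed in 1 of 12 settings, at 0.027 where only those 2 groups entered the fit. In A10-FMT the livers were spread from 20.50 through 47.92 to 65.54 RPKM, across the whole HFD range, and the fold of -0.22 turned to 0.24 without A10-FMT replicate 1. The Con livers, at 36.67, 76.56 and 55.58 RPKM, also spanned the HFD range.

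Pygl, the phosphorylase that breaks glycogen down, was steady beside its opponent Gys2. Its group means lay between 126.8 RPKM in HFD+AOS and 160.4 in AOS, and the HFD livers had 146.57, 142.91 and 145.26. The HFD+AOS livers, at 121.23, 119.02 and 140.29, were below these by 0.19, with a limma adjusted p of 0.311. The A10-FMT livers, at 120.34, 111.56 and 149.94, overlapped the HFD livers. None of the Pygl folds passed the limma test in any comparison or setting, and the widest between 2 groups was -0.34 (95% interval -0.59 to -0.09) for HFD+AOS against AOS.

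Taken within each liver, the log2 ratio of Gys2 to Pygl RPKM was -2.07 ± 0.13 (SD, n = 3) in HFD, -2.09 ± 0.12 in Con and -2.14 ± 0.03 in AOS. It was -0.65 ± 0.11 in HFD+AOS and -0.46 ± 0.55 in A10-FMT. The ratio was thus higher in every liver of the last groups than in any of the other 12. A10-FMT replicate 3, at -1.10, stood between the other A10-FMT livers, at -0.16 and -0.12, and the Con-FMT livers, which had -1.64 ± 0.05.

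**Figure D3:**
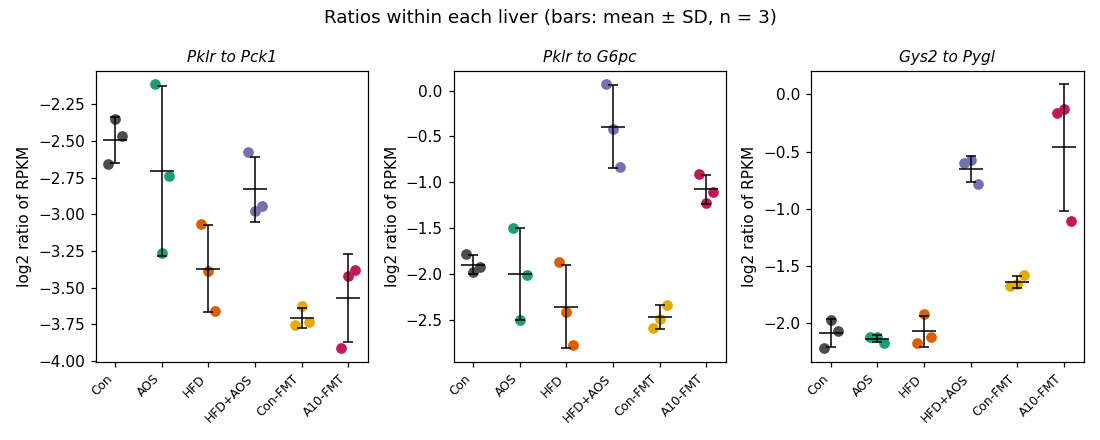
Log2 ratios of RPKM within each liver (y axis) for Pklr to Pck1, Pklr to G6pc and Gys2 to Pygl, by group, with 3 points per group and bars for mean ± SD. Gys2 to Pygl is near -2 in Con, AOS and HFD and reaches -0.65 in HFD+AOS and -0.46 in A10-FMT, and Pklr to G6pc is highest in HFD+AOS (-0.39) and A10-FMT (-1.08).

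The livers with high Gys2 and low Ppp1r3c were also those in which the circadian clock genes stood elsewhere. Arntl, the clock's central activator, had 12.11, 14.64 and 13.21 RPKM in HFD, 1.18, 1.23 and 1.32 in HFD+AOS and 0.79, 0.69 and 2.41 in A10-FMT. Dbp, an output gene of the opposite phase, had 0.56, 0.27 and 0.59 RPKM in HFD, 111.84, 88.90 and 97.76 in HFD+AOS and 126.90, 70.84 and 49.17 in A10-FMT. The groups did not overlap for either gene.

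Of 16 clock genes, 15 passed in A10-FMT against HFD (10 up and 5 down) and 14 in HFD+AOS against HFD (9 up and 5 down). Arntl fell by 2.71 and 2.67 in these comparisons, Npas2, an Arntl partner, by 1.76 and 1.74, and Dbp rose by 5.72 and 6.09, with limma adjusted p between 6.38e-06 and 1.23e-05. Between A10-FMT and Con-FMT 8 of 16 changed, between HFD+AOS and AOS 14, and for the difference of the AOS effects between diets 8. Over the settings these counts ran from 1 to 10, from 11 to 15 and from 6 to 10. The lowest were with only A10-FMT and Con-FMT in the fit (1) and without the third Con and AOS livers (11 and 6). Con-FMT was in between, with Dbp at 16.54, 3.24 and 22.57 RPKM, and 0 of 16 changed against HFD (10 at an unadjusted p under 0.05). There Dbp was 3.04 above HFD at a limma adjusted p of 0.105, and it passed in 3 of 12 settings, without Con-FMT replicate 2 (3.79, adjusted p 0.000854), with a pseudocount of 0.1 (0.0479) and with the replicate number as a block (0.0257). Between HFD and Con 0 of 16 changed (2 at an unadjusted p under 0.05), and between AOS and Con 1, or 0 without the third Con and AOS livers. Per1, a repressor in the clock's feedback loop, rose by 1.57 in A10-FMT against HFD (limma adjusted p 0.0243) and passed in 5 of 12 settings. That call was lost without HFD replicate 1 or 2 or A10-FMT replicate 1 or 2 (adjusted p 0.0619, 0.0652, 0.0844 and 0.0924). In HFD+AOS Per1 was 0.92 above HFD at an adjusted p of 0.145.

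The clock genes thus moved with Gys2 and Ppp1r3c in both groups and with G6pc in HFD+AOS, where all 3 passed against HFD, while G6pc did not pass in A10-FMT. Their part in these results was not tested. Set beside the other 12 livers, a grouping made after the values were seen, all 6 HFD+AOS and A10-FMT livers were above for 105 genes (0.999% of those tested), among them Gys2, and below for 149 (1.42%), among them Ppp1r3c.

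**Figure D4:**
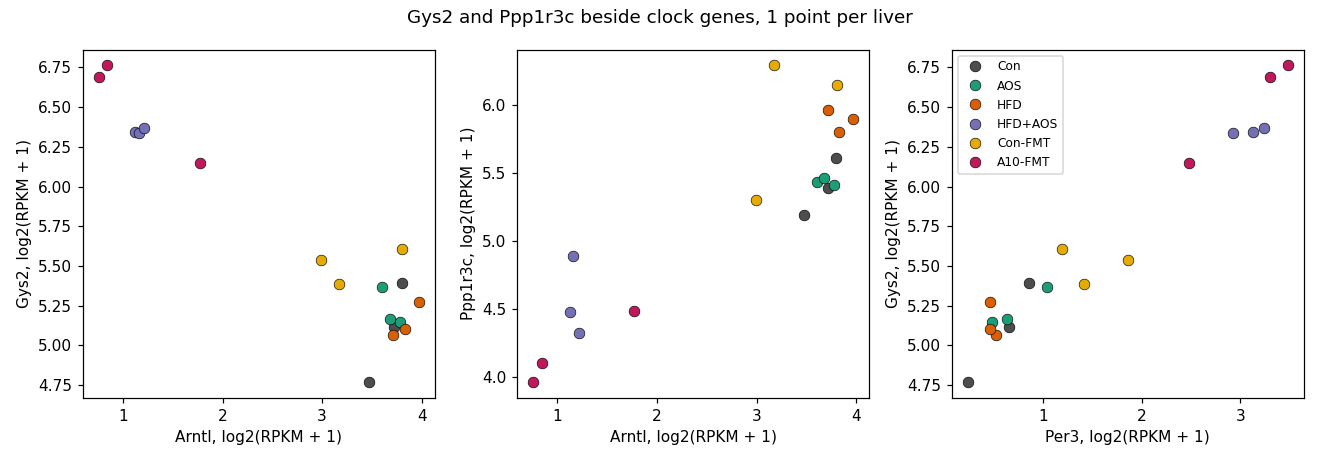
Log2(RPKM + 1) of Gys2 or Ppp1r3c (y axes) against that of the clock genes Arntl or Per3 (x axes), with 1 point per liver coloured by group. The HFD+AOS and A10-FMT livers form a cluster of low Arntl (0.69 to 2.41 RPKM) with high Gys2 and low Ppp1r3c, apart from the other 12 livers (Arntl 6.94 to 14.64 RPKM), so that a line through all points would join 2 clusters.

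Markers of other cell types were read in the same way. The bile duct marker Sox9 was lower by 1.03 in A10-FMT and by 0.87 in HFD+AOS than in HFD (limma adjusted p 0.000887 and 0.00318), 1 of 2 bile duct markers tested of 4 listed. Krt19, the other one tested, went the other way in both comparisons and was not called. The summed RPKM of the 4 was 4.14 to 5.64 in HFD, 2.45 to 3.97 in A10-FMT and 2.74 to 3.59 in HFD+AOS, with none at 0. The part of bile duct cells in the results was not tested. Of 5 hepatocyte markers, Hnf4a was lower by 0.26 in HFD+AOS than in HFD (limma adjusted p 0.0473), a call that held in 3 of 12 settings and was lost without HFD replicate 2 or 3 or any 1 of the HFD+AOS livers (adjusted p 0.0699 to 0.171).

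Among the genes that make and release glucose, G6pc, the enzyme of the last step, was lower with AOS on the high-fat diet. The HFD livers ranged widely, at 148.89, 270.75 and 385.65 RPKM. The HFD+AOS livers had 59.84, 59.55 and 157.60 RPKM, so that the highest of these exceeded the lowest HFD liver. The A10-FMT livers had 111.40, 184.69 and 156.21 RPKM, also overlapping HFD.

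G6pc fell by 1.58 (SE 0.35) from HFD to HFD+AOS at a limma adjusted p of 0.0137, with an exact two-sided permutation p of 0.2. The call passed in 8 of 12 settings, with adjusted p from 0.00199 to 0.0967. It was lost without HFD replicate 3 (-1.27, adjusted p 0.0706), without HFD+AOS replicate 1 (-1.35, 0.069) or 2 (-1.35, 0.0549), and with only those 2 groups in the fit (0.0967). Against AOS, whose livers had 351.31, 325.00 and 333.30 RPKM, HFD+AOS was lower without overlap, by 2.01 (SE 0.35, limma adjusted p 0.00382), in 12 of 12 settings, with the highest adjusted p, 0.035, without the third Con and AOS livers. The difference between the AOS effects on the 2 diets was -2.30 (SE 0.50), which missed the threshold at an adjusted p of 0.0521 in limma, and ran from 0.00577 to 0.274 over the settings.

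From HFD to A10-FMT the G6pc difference was -0.75 (95% interval -1.50 to -0.01, limma adjusted p 0.200). All 3 A10-FMT livers were below the Con-FMT livers, which had 261.52, 296.37 and 241.99 RPKM, with a difference of -0.84 (95% interval -1.59 to -0.10, adjusted p 0.244 in limma). That is 1 of 5 genes of the 9 whose livers did not overlap between A10-FMT and Con-FMT, in a comparison where 18.3% of all genes did not. AOS livers were above the Con livers, which had 156.47, 264.63 and 207.73, at a limma adjusted p of 0.350.

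Pck1, which commits carbon from the citric acid cycle to gluconeogenesis, put the groups in another order than G6pc did. The A10-FMT livers were the highest of all, at 897.52, 846.02 and 756.72 RPKM, and the Con livers had the lowest mean, at 287.20, 342.46 and 302.36, with 1 HFD liver among them. The HFD livers, at 341.32, 529.82 and 714.06, and the HFD+AOS livers, at 374.20, 350.52 and 679.25, were spread over much of the range between. The Con-FMT livers had 585.30, 654.51 and 639.26 RPKM, and the AOS livers 539.91, 553.14 and 552.08.

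A10-FMT exceeded HFD in Pck1 by 0.72 (95% interval 0.22 to 1.21) without overlap, with a limma adjusted p of 0.0721 that ran from 0.0319 to 0.218 over 12 settings. It passed without HFD replicate 3, at 0.97, and with library medians set equal, at 0.76 (adjusted p 0.0355), so that 2 of the 9 were then higher and 1 lower. AOS exceeded Con by 0.82 (95% interval 0.33 to 1.32) without overlap, at a limma adjusted p of 0.144 (range 0.0188 to 0.528, the highest without the third Con and AOS livers). Of the 9, Pck1 and G6pc were those not overlapping between AOS and Con, where 24.7% of all genes did not. The HFD+AOS and HFD livers differed by -0.18 (95% interval -0.67 to 0.32), and 0.07 without HFD replicate 3.

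Fbp1, fructose-bisphosphatase, varied little for its abundance. Its group means ran from 496.0 ± 65.3 RPKM (SD, n = 3) in Con through 578.0 ± 98.2 in HFD and 652.8 ± 40.3 in A10-FMT to 711.8 ± 92.8 in HFD+AOS, and every group overlapped its neighbours in this order. The widest fold of those against HFD was 0.31 (95% interval 0.03 to 0.58, limma adjusted p 0.152) for HFD+AOS.

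Slc2a2, the glucose carrier, had its lowest mean in Con, with livers at 41.04, 71.81 and 53.81 RPKM, and its highest in HFD+AOS, at 101.07, 106.19 and 119.08. The HFD livers had 77.61, 79.54 and 71.25 RPKM, and the A10-FMT livers had 84.27, 95.78 and 118.76. Both groups given AOS or the microbes of AOS-dosed donors on the high-fat diet lay above the HFD livers without overlap. HFD+AOS was higher by 0.51 (95% interval 0.10 to 0.92, limma adjusted p 0.112) and A10-FMT by 0.37 (95% interval -0.04 to 0.78, adjusted p 0.256), neither past the threshold. The first of these passed in 1 of 12 settings, at 0.0352 where only those 2 groups entered the fit. Of the 9, 5 did not overlap between HFD+AOS and HFD, where 27.2% of all genes did not, and 5 between A10-FMT and HFD, where 23.4% did not.

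AOS livers, with Slc2a2 at 117.04, 67.01 and 82.67 RPKM, exceeded Con by 0.67 (95% interval 0.26 to 1.08) with overlap, at a limma adjusted p of 0.144 (range 0.0408 to 0.523). The difference passed without Con replicate 2, at 0.87, and the adjusted p was highest without the third Con and AOS livers.

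Pklr, which makes pyruvate in the last step of glycolysis, had 40.74, 50.74 and 56.44 RPKM in HFD and 59.56, 79.14 and 72.82 in A10-FMT. The A10-FMT livers were above all the HFD livers and above the Con-FMT livers, which had 43.42, 52.96 and 48.03. The differences were 0.51 (95% interval -0.03 to 1.05, limma adjusted p 0.236) and 0.54 (95% interval -0.01 to 1.08, adjusted p 0.309). The AOS livers held the widest spread, at 124.93, 57.55 and 82.58 RPKM.

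The log2 ratio of Pklr to G6pc RPKM, which sets the use of glucose against its release, was -2.35 ± 0.45 (SD, n = 3) in HFD, -0.39 ± 0.45 in HFD+AOS and -1.08 ± 0.16 in A10-FMT. No liver of the other 4 groups reached the A10-FMT livers, whose lowest was -1.22. The ratio of Pklr to Pck1 gave another order, with -3.37 ± 0.30 in HFD, -2.83 ± 0.22 in HFD+AOS and -3.57 ± 0.30 in A10-FMT. The 2 ratios have Pklr in common and differ only in the gluconeogenic gene.

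Beyond the 9, 6 lists of genes of glucose metabolism held 122 genes that were tested. Of these, 13 passed in A10-FMT against HFD (9 up and 4 down, 10.66% of the lists, where 6.6% of all genes passed) and 20 in HFD+AOS against HFD (16 up and 4 down, 16.39%, where 8.75% of all genes passed), with median folds of 0.05 and 0.07. The share was 9.02% between HFD+AOS and AOS (11 genes), and 2 genes changed between A10-FMT and Con-FMT. For AOS against Con 1 did, and 5.44%, 1.68% and 0.133% of all genes passed in these comparisons. Over 12 settings the numbers called in them ran from 3 to 19, from 0 to 11 and from 0 to 2. Without the third Con and AOS livers they were 3, 0 and 0. Over 12 settings the number called ran from 1 to 26 in A10-FMT against HFD, the lowest where only those 2 groups entered the fit and the highest with library medians set equal (21 up and 5 down). Leaving out A10-FMT livers 1, 2 or 3 in turn gave 7, 8 and 21, and the fit without the third Con and AOS livers gave 10. In HFD+AOS against HFD it ran from 7 to 22, with 7 without HFD replicate 3 or HFD+AOS replicate 3, 8 without HFD+AOS replicate 1, 9 without HFD replicate 2 and 13 without HFD+AOS replicate 2. There the fit without the third Con and AOS livers gave 12. By the same limma test 0 of 122 passed in HFD against Con (18 under 0.05 before adjustment) and 0 in Con-FMT against HFD (14 under 0.05 before adjustment).

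In glycogen metabolism, 2 of 21 tested genes rose between HFD and A10-FMT (9.52%, beside 6.6% of all genes) and 4 between HFD and HFD+AOS (19.05%, beside 8.75%), and none of the 21 was called lower. Ugp2, which makes the UDP-glucose that glycogen synthase adds to the chain, had 79.32, 85.40 and 85.00 RPKM in HFD, 125.59, 106.20 and 117.92 in A10-FMT and 121.40, 116.08 and 127.80 in HFD+AOS. It rose by 0.48 and 0.54 (limma adjusted p 0.0133 and 0.00603), in 10 and 12 of 12 settings, and the former call was lost without A10-FMT replicate 1 (adjusted p 0.069). Between Con and AOS it rose by 0.58 (limma adjusted p 0.0397), in 2 of 12 settings. That call was lost without any 1 AOS liver or Con replicate 1 or 3 (adjusted p 0.0777 to 0.253), and without replicate 3 of both Con and AOS (0.523). Stbd1, which binds glycogen for delivery to lysosomes, rose by 0.77 in A10-FMT and by 0.66 in HFD+AOS (limma adjusted p 0.0112 and 0.0226), in 10 and 8 of 12 settings. It missed in A10-FMT without replicate 2 (adjusted p 0.0623), and in HFD+AOS without HFD replicate 1 or 3 or HFD+AOS replicate 3 (0.0536, 0.062 and 0.0774). Phka2, a subunit of liver phosphorylase kinase, rose by 0.41 in HFD+AOS (limma adjusted p 0.0182), in 7 of 12 settings, and missed without HFD replicate 2 or 3 or HFD+AOS replicate 1 or 3 (0.0523 to 0.0891).

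In glycolysis, 0 of 20 tested genes passed the limma test for A10-FMT against HFD (3 at an unadjusted p under 0.05), and 1 passed it for HFD+AOS against HFD (5%, beside 8.75% of all genes). That gene was Gckr, higher by 0.44 (limma adjusted p 0.0384) in 5 of 12 settings. It missed without HFD replicate 2 or 3 or HFD+AOS replicate 1 or 3 (adjusted p 0.0837 to 0.167). Between A10-FMT and Con-FMT, Ldha, lactate dehydrogenase, fell by 0.55 (limma adjusted p 0.0245), from 438.94, 486.59 and 514.84 RPKM to 342.33, 280.24 and 363.31. This passed in 6 of 12 settings and missed without Con-FMT replicate 2 or 3 or A10-FMT replicate 1 or 2 (adjusted p 0.063 to 0.138).

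In gluconeogenesis and glucose release, 1 of 20 tested genes changed against HFD in each of the A10-FMT and HFD+AOS groups (5%, beside 6.6% and 8.75% of all genes), and in both it was Aqp9, the channel that admits glycerol, a substrate for new glucose. Aqp9 had 107.03, 116.13 and 105.23 RPKM in HFD, 151.91, 153.87 and 140.29 in A10-FMT and 161.25, 148.14 and 152.48 in HFD+AOS, and rose by 0.44 and 0.49 (limma adjusted p 0.00189 and 0.000823), in 11 and 12 of 12 settings. All 6 livers of the A10-FMT and HFD+AOS groups were above all others for this gene, whose highest value elsewhere was 133.27 RPKM.

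In fructose, galactose and pentose phosphate metabolism, 3 of 19 tested genes rose and 1 fell in A10-FMT (21.05%, beside 6.6% of all genes), and 3 rose in HFD+AOS (15.79%, beside 8.75%). Slc2a5, the fructose carrier GLUT5, had 2.79, 2.54 and 2.38 RPKM in HFD, 6.03, 4.78 and 3.60 in A10-FMT and 6.18, 6.12 and 6.09 in HFD+AOS. It rose by 0.68 and 1.00 (limma adjusted p 0.00278 and 0.000133), on a scale that understates the change of genes this low. Sord, sorbitol dehydrogenase, which makes fructose, rose by 0.62 and 0.54 (limma adjusted p 0.00184 and 0.00464). Both genes passed in 11 of 12 settings in A10-FMT, missing where only those 2 groups entered the fit, and in 12 of 12 in HFD+AOS.

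Around pyruvate dehydrogenase, 2 of 10 tested genes changed in A10-FMT (20%, beside 6.6% of all genes) and 3 in HFD+AOS (30%, beside 8.75%). Pdk4, a kinase that switches the enzyme off in fasting, fell by 1.34 and 1.13 (limma adjusted p 0.00293 and 0.00826), to 0.38, 0.27 and 1.43 RPKM in A10-FMT and 1.17, 0.61 and 0.86 in HFD+AOS from 2.18, 3.64 and 3.65 in HFD. These folds were -2.29 and -1.74 with a pseudocount of 0.1. Pdk2, a kinase of the same family, rose by 0.54 and 0.60 (limma adjusted p 0.0103 and 0.00476), in 8 and 12 of 12 settings. In A10-FMT it missed without HFD replicate 3 or A10-FMT replicate 1 or 2 (adjusted p 0.0528, 0.0504 and 0.0562).

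Among 32 tested genes that control hepatic glucose genes, 4 passed in A10-FMT (2 up, 2 down, 12.5% beside 6.6% of all genes) and 8 in HFD+AOS (5 up, 3 down, 25% beside 8.75%). Srebf1, an insulin-driven transcription factor of lipid synthesis genes, rose by 0.94 and 0.92 (limma adjusted p 0.0119 and 0.0136), in 11 of 12 settings each, with a miss without A10-FMT replicate 2 (adjusted p 0.0562) and without HFD+AOS replicate 1 (0.0561). Insig2, which retains that factor's protein in the endoplasmic reticulum, fell by 1.54 and 1.15 (adjusted p 0.0106 and 0.0388), from 153.82, 153.86 and 136.80 RPKM to 35.74, 30.65 and 115.18 in A10-FMT and 68.95, 64.42 and 64.69 in HFD+AOS. It passed in 9 and 4 of 12 settings, and missed without A10-FMT replicate 1 or 2 (adjusted p 0.06 and 0.061) in the former and without any 1 HFD or HFD+AOS liver (0.0612 to 0.101) in the latter. Trib3, a pseudokinase that binds the insulin-signalling kinase AKT, rose by 1.54 in HFD+AOS (limma adjusted p 0.0152), in 10 of 12 settings, and missed without HFD replicate 3 or HFD+AOS replicate 3 (0.0776 and 0.0523). Cebpa rose by 0.68 and 0.62 (limma adjusted p 0.0181 and 0.0263), in 7 and 6 of 12 settings. In both comparisons it missed without HFD replicate 2 (0.0592 and 0.0718) or 3 (0.0864 and 0.119). In HFD+AOS Foxo3 and Crtc2 rose by 0.35 and 0.36 (limma adjusted p 0.0445 and 0.0455), in 3 of 12 settings each. Igfbp1, which insulin represses, fell by 2.51 and 2.14 (limma adjusted p 0.0233 and 0.0414), with HFD livers at 11.18, 42.18 and 138.83 RPKM. These calls held in 7 and 4 of 12 settings. Without HFD replicate 3 the folds were -1.64 and -1.27 (adjusted p 0.0869 and 0.167). The calls were also lost without HFD replicate 2 (0.0721 and 0.101), that in A10-FMT without A10-FMT replicate 2 (0.118), and that in HFD+AOS without any 1 HFD+AOS liver (0.0654 to 0.114). For Igfbp1, as for G6pc and Pck1, HFD replicate 1 was the lowest HFD liver and HFD replicate 3 the highest.

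**Figure D5:**
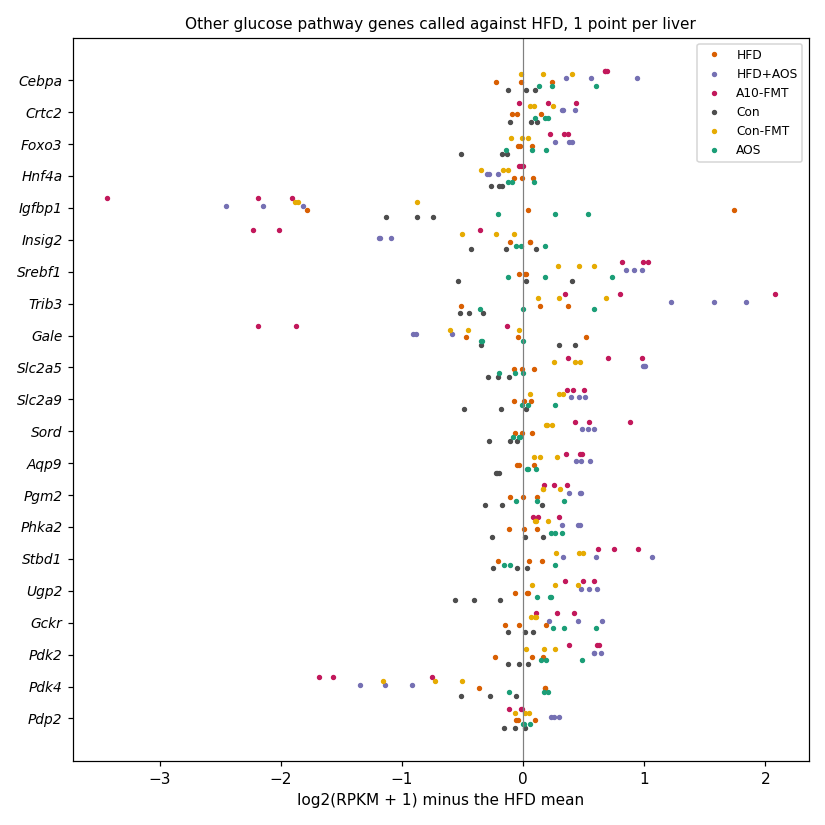
Log2(RPKM + 1) of each liver minus the HFD mean (x axis) for the glucose pathway genes outside the 9 that passed the limma test against HFD in A10-FMT or HFD+AOS, with 1 point per liver coloured by group. Igfbp1, Insig2 and Pdk4 lie to the left in the A10-FMT and HFD+AOS livers and most other genes to the right, and Igfbp1 is spread over the widest range among the HFD livers (11.18 to 138.83 RPKM).

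Each of the 9 genes was last set beside all other tested genes for the most similar pattern, as Pearson's r of log2(RPKM + 1) over 18 livers, which share their groups, so that r is a description. Gys2 was most like the clock gene Per3 (r = 0.977), and over the 12 livers outside HFD+AOS and A10-FMT the value was 0.82. Ppp1r3c was most like Cldn1 (0.943, and 0.82 over the 12), which encodes a tight junction protein, and G6pc was most like the transcription factor gene Mef2d (0.909, and 0.76 over the 12). Slc2a2 was nearest to Slc38a4 (0.928) and Pck1 to Slc38a2 (0.884), both amino acid carriers.

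For Fbp1 the nearest gene was Agmat (0.909), for Pygl it was Taf1 (0.893), and for Ppp1r3b it was Prmt3 (0.837), though only 0.43 over the 12 livers. Pklr was nearest to Hcn3 (0.912), the neighbour whose annotated end overlaps its own on the other strand. Hcn3 stood at 6.52 RPKM in the AOS liver where Pklr was highest, and at 0.50 to 0.68 in the HFD livers. Without the third Con and AOS livers the nearest gene remained the one named for 7 of the 9, the exceptions being Ppp1r3b (Dcun1d3, 0.871) and Ppp1r3c (Arl4a, 0.946).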

How the data were processed

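Liver RNA of 18 mice was sequenced on an Illumina instrument, and the authors mapped the reads and deposited one table of RPKM values per gene and liver, rounded to 2 decimals. The paper's methods name SOAPaligner as the aligner, and the submitters' processing notes name Bowtie 0.12.2 and the build mm10. The annotation, strandedness and read numbers were not given in the sources used here, so count tests, among them the DEGseq of the paper, were not run. Groups and replicate numbers came from the sample titles.

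Genes that reached an RPKM of 1 in 3 or more of the 18 livers were tested, which gave 10507 genes, all 9 described here among them. Values were log2(RPKM + 1), and limma 3.58.1 (lmFit, eBayes with trend, R 4.3.3) was fitted with a mean per group over all livers. The test was two-sided, p values of each of 8 comparisons were adjusted by the Benjamini-Hochberg method across the 10507 genes, and genes were called at an adjusted p under 0.05. The fit was tested on simulated data. Exact permutation tests compared 3 livers with 3. Replicates are separate livers by their labels.

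The 9 genes, the gene lists and the tests were chosen with earlier results of these data known. Beside the 9, the text names the 2 genes of each pathway list with the smallest unadjusted p in a comparison, 4 clock genes, and the gene most correlated with each of the 9. A further gene of the glycolysis list, with a ratio that used it, and a further gene of the glycogen list are not reported here. The alternatives were library medians set equal, a pseudocount of 0.1, no filter on low values, the replicate number as a block, a fit of only the groups compared, a fit that omitted replicate 3 of Con and of AOS, and each liver left out in turn. Deviations of same-numbered livers correlated at -0.177 to 0.225, with no comparison in which every pair was over 0.1, so the numbers were not taken to pair livers. Python 3.11.15 with numpy 2.4.6 and pandas 2.3.3 was used for tables.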

Additional observations from a re-analysis of the deposited data

Results flagged for a closer look

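The effect of AOS differed between the regular and the high-fat diet, by the limma test of that difference, for 1 of the 9 genes and for 5 others that were named. For Gys2 the difference of the log2 effects was 1.07 (SE 0.22, adjusted p 0.0367), from 0.13 on the regular diet to 1.20 on the high-fat diet, and it missed the threshold without the third Con and AOS livers (1.03, adjusted p 0.269, with a range of 0.0121 to 0.269 over 18 settings). For the fructose carrier Slc2a5 it was 0.88 (adjusted p 0.0216), which passed in 9 of 18 settings and was lost without Con replicate 3, AOS replicate 1 or 3, HFD replicate 2 or 3, or HFD+AOS replicate 1 or 2 (adjusted p 0.0503 to 0.0639). The Slc2a5 call was also lost without the third Con and AOS livers (limma adjusted p 0.158) and with no filter on low values (0.0566). For the clock genes the difference was -2.70 for Arntl (adjusted p 0.000698), -1.81 for Npas2 (0.000698), 5.45 for Dbp (0.00137) and 2.48 for Per3 (0.00144), each in 18 of 18 settings. The part of the clock genes in the Gys2 difference was not tested.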

How the results depend on the processing

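Of the 11 folds called among the 9 genes, none changed direction in any setting. Leaving out 1 liver kept the call in 55 of 72 fits and lost it in 17, and the other settings kept it in 59 of 66 and lost it in 7. The cause of these losses was not tested, except that leaving out livers or groups leaves fewer samples in the fit. The number of the 9 called was 0 for A10-FMT against Con-FMT and 1 (Pck1) for AOS against Con when only the groups compared entered the fit. For the difference of the AOS effects between diets it was 0 with no filter on low values, 0 without the third Con and AOS livers, and 2 with only the groups concerned. With the replicate number as a block it was 2, with G6pc at an adjusted p of 0.0281 in limma beside Gys2. The block moved no other number of the 9 called by over 1.5 times. Over all genes it moved HFD against Con from 40 to 5 and Con-FMT against HFD from 1 to 2. Among the listed genes it ended the calls of Crtc2 and Hnf4a in HFD+AOS against HFD, Sord in A10-FMT against Con-FMT, Ugp2 in AOS against Con, and Insig2 and Per2 in HFD+AOS against AOS.

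Over fits without 1 liver the number called ran from 0 to 1 for AOS against Con (1 without Con replicate 2) and from 0 to 3 for the difference between diets (3 without HFD replicate 1). For that difference, Gys2 was lost without Con replicate 2 or 3, AOS replicate 2 or 3, HFD replicate 2 or 3, or HFD+AOS replicate 1, 2 or 3, with values from 0.92 to 1.13. G6pc passed it without Con replicate 2 (-2.48), HFD replicate 1 (-2.67) or HFD+AOS replicate 3 (-2.76), and Ppp1r3c without Con replicate 2 (-1.47) or HFD+AOS replicate 2 (-1.53), and Pck1 without HFD replicate 1 (-1.28). For A10-FMT against HFD, G6pc passed without HFD replicate 1 (-1.13, adjusted p 0.0498).

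With library medians set equal, small folds that were not called changed sign, to -0.00 (Gys2) and -0.02 (Pygl) for HFD against Con and to -0.04 (Ppp1r3c) for AOS against Con. Uncalled folds that changed sign when 1 liver was left out are given by their lowest and highest values. For HFD against Con they were -0.03 to 0.65 (G6pc), -0.11 to 0.21 (Gys2), -0.06 to 0.14 (Pygl) and -0.46 to 0.06 (Ppp1r3b). For Con-FMT against HFD they were -0.15 to 0.08 (Pklr), -0.28 to 0.40 (G6pc) and -0.16 to 0.33 (Ppp1r3c). For AOS against Con they were -0.03 to 0.28 (Gys2), -0.50 to 0.02 (Ppp1r3b) and -0.07 to 0.15 (Ppp1r3c). Ppp1r3b ran from -0.57 to 0.24 for A10-FMT against HFD and from -0.46 to 0.36 against Con-FMT, where Fbp1 ran from -0.00 to 0.08, and Pck1 ran from -0.48 to 0.07 for HFD+AOS against HFD. For the difference between diets they were -0.51 to 0.04 (Pklr), -0.04 to 0.20 (Fbp1) and -0.36 to 0.06 (Slc2a2). With 3 livers a group and unknown read numbers, the direction of these folds was not settled.

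Of the glucose pathway genes called outside the 9, 0 of 13 in A10-FMT against HFD and 6 of 20 in HFD+AOS against HFD passed in every setting, and 9 of 15 and 13 of 14 clock genes did. Leaving out the third Con and AOS livers also ended calls in comparisons with neither group. Among these were Gckr, Cebpa, Insig2, Igfbp1, Foxo3 and Crtc2 in HFD+AOS against HFD. Igfbp1 in A10-FMT against HFD and Ldha in A10-FMT against Con-FMT were others (limma adjusted p of those named 0.0502 to 0.0809). Counts over all genes moved further. In the same fit 395 genes passed for A10-FMT against HFD, 496 for HFD+AOS against HFD and 82 for A10-FMT against Con-FMT. For A10-FMT against HFD, 275 genes were higher and 418 lower, and 609 and 475 with library medians set equal. Over all settings the genes called by limma numbered 78 to 1218 there (as reported, 693), 0 to 178 for HFD against Con (as reported, 40), 1 to 13 for Con-FMT against HFD (as reported, 1), 4 to 564 for A10-FMT against Con-FMT (as reported, 177), 0 to 132 for AOS against Con (as reported, 14), 320 to 1282 for HFD+AOS against HFD (as reported, 919), 161 to 762 for HFD+AOS against AOS (as reported, 572) and 15 to 186 for the difference between diets (as reported, 53).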
